A study of Mus musculus with 8 samples.

Results

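Serum response factor, its myocardin-related cofactors and 5 genes that the same system controls in smooth muscle were followed in cultured muscle stem cells. The 8 genes were taken by symbol from a table of 39017 genes. The rule holds no threshold on their values, but the set was proposed with earlier results of these data known: Srf, Mkl1, Mkl2, Acta2, Actg2, Tagln, Cnn1 and Myh11. The tested libraries came from satellite cells, which are resident muscle stem cells, that had been grown for 4 days with 10 µM sal003 (4 libraries). Sal003 is an inhibitor of the phosphatases that remove phosphate from eIF2α, a factor of translation initiation. They were set against satellite cells grown for the same time with the vehicle DMSO (4 libraries). The cells of both groups came from adult Pax3GFP/+ mice, in which 1 Pax3 allele carries GFP, so the vehicle controls share this allele. The source muscles were the diaphragm and the abdominal wall, and 7500 cells were plated per 35 mm dish. It is not stated whether replicates stand for separate animals or cultures, and the p-values measure no more than the spread among the libraries.

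SRF is a transcription factor of the MADS box family that binds a short DNA element, the CArG box. The cofactors Mkl1 and Mkl2 (also written Mrtfa and Mrtfb) are held in the cytoplasm by unpolymerised actin and move to the nucleus when actin is driven into filaments, and a second set of partners, the ternary complex factors, responds to MAP kinase signalling. In smooth muscle the related cofactor myocardin and SRF drive the contractile genes. In skeletal muscle SRF is known for its control of the sarcomeric actins and of immediate early genes, and smooth muscle actin is made transiently by embryonic and cultured skeletal myoblasts.

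The CArG boxes of the members are shown because they are the element through which SRF reaches its targets. The RefSeq promoters (GRCm38.p6) covered 5 of the 8 members. The 250 bases before each annotated start were read for the CArG box, which has 10 bases. Its general pattern is the same on both strands, though the letters of a single match need not be. Srf itself has 2 full boxes, the first beginning 82 and the second 62 bases before the RefSeq start. Of all 32851 windows of this length, 1.47% hold a full box. The Srf promoter up to the GENCODE start, chr17:46556176-46556412 on the minus strand, is printed with both boxes in capitals. The GENCODE start lies upstream of the RefSeq start, so the boxes are nearer to the end of the printed stretch.
Srf promoter: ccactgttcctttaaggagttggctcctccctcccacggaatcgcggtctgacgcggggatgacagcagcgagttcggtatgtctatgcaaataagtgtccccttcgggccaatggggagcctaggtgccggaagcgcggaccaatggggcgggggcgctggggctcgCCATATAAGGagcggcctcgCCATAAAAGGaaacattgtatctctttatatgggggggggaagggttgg

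Acta2 has no full box in its window but 2 boxes that differ from the full form by a single G or C among the middle bases. They begin 84 and 34 bases before the RefSeq start, inside the longer first exon that GENCODE draws for the gene. With 1 such G or C allowed, 8.59% of all windows hold a box and 0.67% hold 2 or more. One of the 2 windows of Mkl1 also holds a box of this kind, 124 bases before its start. The windows of Mkl2 and Cnn1 hold neither form. A match describes the letters only and does not show binding. Each is given with 10 bases on either side and the box in capitals.
Acta2, distal box (chr19:34255438-34255467, minus strand): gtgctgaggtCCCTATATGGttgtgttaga
Acta2, proximal box (chr19:34255388-34255417, minus strand): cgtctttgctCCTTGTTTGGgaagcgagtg
Mkl1 box (chr15:81190841-81190870, minus strand): gcgaacgcccCCTAAATCGGgctagcccta

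Total counts ran from 37248830 to 39378523 per library in sal003 and from 32753929 to 40234107 in DMSO. DMSO replicate 2 stood apart, with 14437 genes detected against 16561 to 18076 in the other libraries. Where leaving it out turned a direction, ended a call or moved an estimate by much, the value without it is given too. Of 8 myogenic markers all 8 could be tested, and their summed level ran from 3314 to 3643 CPM (counts relative to the library total, scaled by the trimmed mean of M values, TMM) in sal003 and from 6600 to 7708 in DMSO. Of these, Pax7 was called higher, while Myog, Cdh15, Itga7 and Des were called lower. The largest differences in mean were those of Des (1171 CPM in sal003, 2941 in DMSO) and Myog (870.3 in sal003, 2634 in DMSO). Myod1 (892.4 CPM in sal003, 896.4 in DMSO), Pax3 (20.5 and 16.29) and Myf5 (19.21 and 14.79) did not pass. The lower sum thus does not stand for a fall of every marker on the list. Markers of endothelial cells (at most 6.04 CPM summed in sal003 and 4.29 in DMSO), immune cells (5.10 and 6.29) and Schwann cells (5.47 and 7.79) were near 0. Of 15816 genes tested, 22.7% passed an adjusted p of 0.05 in edgeR's quasi-likelihood test, 10.6% higher and 12.2% lower in sal003.

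Of the 8 members, 6 could be tested, and 2 of them, Acta2 and Tagln, were called, both lower in sal003. The transcription factor and its 2 cofactors did not pass the test. Actg2 was present at about 1 CPM and did not pass, Myh11 was below the filter on low counts, and Cnn1 had no count in any library. The 2 calls among 6 tested members stand beside the 22.7% of all tested genes called in either direction.

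**Figure D1:**
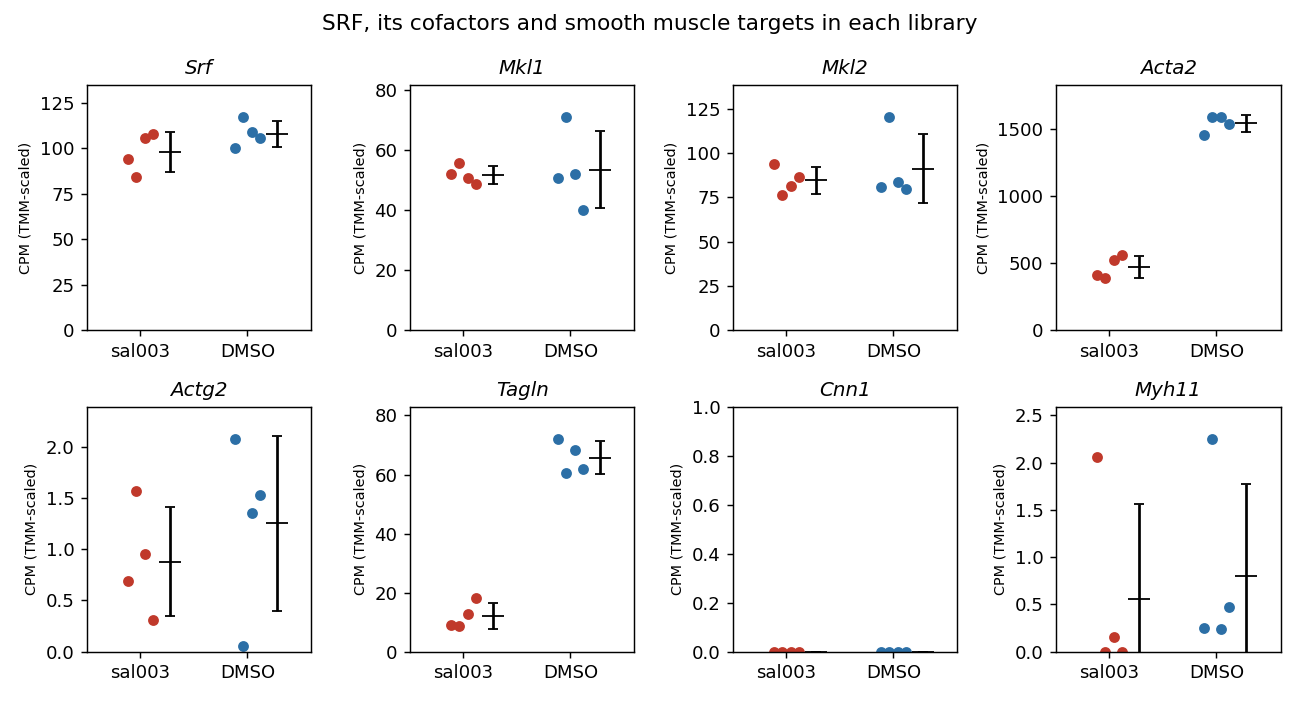
Level of each of the 8 members in every library, in TMM-scaled CPM on linear axes that start at 0, with sal003 libraries in red and DMSO libraries in blue; bars give mean and SD (n = 4), clipped at 0 for Myh11. The groups separate for Acta2 (387.6 to 559.0 CPM in sal003, 1457 to 1593 in DMSO) and Tagln, overlap for Srf, Mkl1, Mkl2, Actg2 and Myh11, and all points of Cnn1 lie at 0.

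Srf (ENSMUSG00000015605; mm10 chromosome 17, 46548329 to 46556175, minus strand) had 94.3, 84.4, 106.0 and 108.1 CPM in the sal003 libraries, against 99.98, 117.4, 108.8 and 105.8 CPM in the DMSO libraries. The 2 ranges overlap, and sal003 replicates 1 and 2 lie below all 4 DMSO libraries. The means were 98.2 ± 11.04 CPM in sal003 and 108.0 ± 7.26 CPM in DMSO (SD, n = 4). The fold change on the log2 scale was -0.14 ± 0.11 (SE), with an edgeR adjusted p of 0.428, and its 95% interval ran from -0.36 to 0.09.

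Mkl1 (ENSMUSG00000042292; chromosome 15, 81012281 to 81190757, minus strand), the founding myocardin-related factor, had 51.8, 55.5, 50.4 and 48.7 CPM in sal003, against 50.6, 70.9, 51.9 and 40.1 CPM in DMSO. All 4 sal003 libraries fell inside the DMSO range, whose ends were set by DMSO replicates 2 and 4. The estimate was -0.05 ± 0.15 on the log2 scale (SE; 95% interval -0.37 to 0.28; adjusted p by edgeR 0.889) and became 0.13 without DMSO replicate 2 (adjusted p = 0.509). Its exons share 10 bases with Sgsm3 on the opposite strand.

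Mkl2 (ENSMUSG00000009569; chromosome 16, 13256481 to 13417529, plus strand), the second myocardin-related factor, had 93.9, 76.4, 81.5 and 86.4 CPM in sal003, against 80.8, 120.5, 83.7 and 79.8 CPM in DMSO. DMSO replicate 2 was the highest of the 8 libraries, and the other 3 DMSO libraries lay within the sal003 range. The estimate was -0.11 ± 0.13 on the log2 scale (SE; 95% interval -0.40 to 0.18; adjusted p by edgeR 0.664), and it was 0.07 without DMSO replicate 2 (adjusted p = 0.713). For both cofactors the sign of the estimate thus depended on 1 library, and both 95% intervals included 0.

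Acta2 (ENSMUSG00000035783; chromosome 19, 34241090 to 34255590, minus strand) encodes the smooth muscle α-actin and was by far the most abundant member. It had 408.6, 387.6, 526.3 and 559.0 CPM in sal003, against 1457, 1593, 1592 and 1540 CPM in DMSO. Every sal003 library lay below every DMSO library, as at 13.7% of all tested genes (13.1% had every sal003 library above, 26.8% either), and sal003 replicates 1 and 2 were lower than replicates 3 and 4. The means were 470.4 ± 84.9 CPM in sal003 and 1545 ± 64.2 CPM in DMSO (SD, n = 4), a log2 fold change of -1.72 ± 0.11 (SE; edgeR adjusted p = 1.87e-08). This is 3.28-fold less in sal003, and 5.21% of tested genes had an estimate as low or lower. In bulk samples, fewer cells that carry a transcript and less of it per cell cannot be told apart.

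Tagln (ENSMUSG00000032085; chromosome 9, 45929619 to 45936058, minus strand) encodes transgelin or SM22α, an actin-binding protein and a classic SRF target of smooth muscle. It had 9.07, 8.57, 12.6 and 18.2 CPM in sal003, against 72.2, 60.6, 68.4 and 61.8 CPM in DMSO. The groups did not overlap, and sal003 replicate 4 stood highest within its group, as it did for Acta2. The means were 12.1 ± 4.45 CPM in sal003 and 65.7 ± 5.47 CPM in DMSO (SD, n = 4), a log2 fold change of -2.44 ± 0.21 (SE; edgeR adjusted p = 6.10e-07), or 5.42-fold less in sal003. Only 2.19% of tested genes had an estimate as low or lower. Its exons share 1241 bases with the antisense gene Gm48529, which is not in the table, and 108 bases with Pcsk7, whose log2 fold change was -0.29 (adjusted p = 0.338). The strand setting of the counting is not given in the sources used here. If the counting ignored the strand, reads of the antisense partner cannot be told from those of Tagln.

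Tagln was lowered more than Acta2. The log2 ratio of Tagln to Acta2 counts was -5.49, -5.50, -5.38 and -4.94 in sal003, against -4.34, -4.71, -4.54 and -4.64 in DMSO. All 4 sal003 libraries had a lower ratio than any DMSO library, and the means differed by -0.77 (two-sided exact permutation test over libraries, p = 0.0286, the smallest that 4 against 4 allows). The same comparison of Acta1, the skeletal α-actin, with Acta2 gave log2 ratios of 1.09 ± 0.06 in sal003 and 1.87 ± 0.09 in DMSO (SD, n = 4; exact permutation p = 0.0286), so the skeletal isoform too was lowered more than the smooth muscle one. Adjusted over these 2 ratios, both p stayed at 0.0286. The ratios were chosen after the values were seen, and the adjustment does not correct for that choice.

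Actg2 (ENSMUSG00000059430; chromosome 6, 83512905 to 83536265, minus strand) encodes the γ-actin of enteric smooth muscle. It had 0.686, 1.57, 0.953 and 0.309 CPM in sal003, against 2.08, 0.0593, 1.35 and 1.53 CPM in DMSO, which are 12 to 66 counts in sal003 libraries and 2 to 65 in DMSO libraries. The groups overlap, and DMSO replicate 2 with its 2 counts was the lowest of all. The log2 fold change of -0.51 ± 1.12 did not pass (SE; edgeR adjusted p = 0.832), and its 95% interval from -2.90 to 1.88 leaves both directions possible. Without DMSO replicate 2 it was -0.89 (adjusted p = 0.529), and over each of the 8 libraries left out in turn it ran from -0.94 to -0.14. The coding sequence of Actg2 is 84.2% identical to that of Acta2, 84.9% to Acta1 and 84.5% to Actc1. The longest identical runs are 29, 29 and 38 bases. The treatment of reads with several alignments is not given in the sources used here, and counts this low may be shared with other actins.

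Myh11 (ENSMUSG00000018830; chromosome 16, 14194535 to 14291372, minus strand), the smooth muscle myosin heavy chain and the most specific marker of mature smooth muscle in the set, had 84, 0, 6 and 0 counts in sal003, against 8, 76, 8 and 18 counts in DMSO. One library of each group, sal003 replicate 1 and DMSO replicate 2, held most of the counts, and the other libraries had at most 18. The gene did not reach 10 counts in enough libraries to be tested. Cnn1 (ENSMUSG00000001349; chromosome 9, 22099216 to 22109630, plus strand), which encodes calponin 1, had 0 counts in all 8 libraries, where 3 counts would be 0.0762 to 0.0805 CPM in sal003 and 0.0746 to 0.0916 in DMSO by total counts. Neither gene was therefore detectable as a steady signal at this depth, in cells where Acta2 ranked 80th of all tested genes by mean level.

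Levels of different members were compared per kb of exon. The length counts all annotated exons of a gene merged, not the transcript present in these cells, and the order depends on it. In sal003 the order was Acta2 (214.2 ± 38.7 CPM per kb), Srf (33.9 ± 3.82), Mkl2 (9.41 ± 0.827), Mkl1 (8.44 ± 0.478), Tagln (6.10 ± 2.24), Actg2 (0.564 ± 0.340) and Myh11 (0.0727 ± 0.133). In DMSO it was Acta2 (703.7 ± 29.2), Srf (37.3 ± 2.51), Tagln (33.1 ± 2.75), Mkl2 (10.1 ± 2.18), Mkl1 (8.72 ± 2.10), Actg2 (0.805 ± 0.549) and Myh11 (0.106 ± 0.128; all SD, n = 4). The libraries of Mkl2 and Mkl1 overlapped in both groups, as did those of Actg2 and Myh11. Those of Tagln overlapped with Mkl1 and with Mkl2 in sal003, and with Srf in DMSO. Tagln thus stood beside Srf in DMSO and among or below the cofactors in sal003.

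Acta2 was also a minor part of the cells' actin RNA. Of the summed level per kb of 6 actin genes it made up 7.60% ± 0.694 in sal003 and 10.0% ± 0.532 in DMSO (SD, n = 4). The cytoplasmic Actb held 52.3% ± 3.87 in sal003 and 15.2% ± 2.297 in DMSO, and the skeletal Acta1 held 23.3% ± 2.64 in sal003 and 52.4% ± 2.39 in DMSO. These shares describe the mixture and move together, since they sum to a fixed total.

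**Figure D2:**
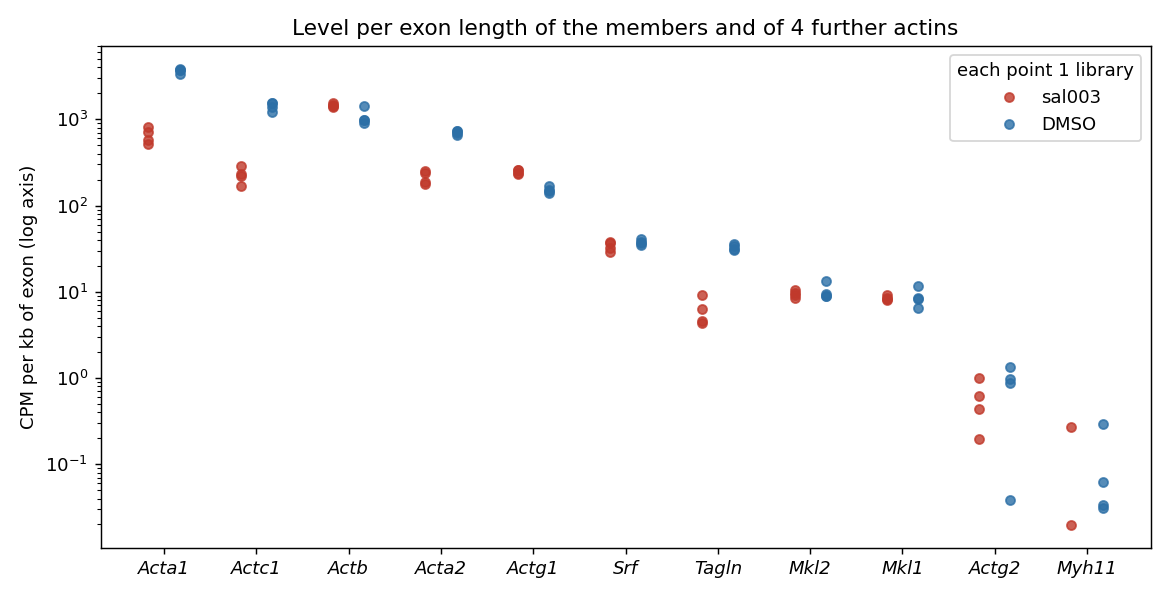
Level per kb of exon, on a log axis, of 7 members and of the actins Acta1, Actc1, Actb and Actg1, ordered by their DMSO mean; each point is 1 library, sal003 left and in red, DMSO right and in blue. Cnn1 is not drawn because it is 0 throughout, and 2 sal003 libraries of Myh11 are at 0 and off the axis; Tagln lies at 4.31 to 9.17 CPM per kb in sal003 and 30.5 to 36.3 in DMSO, beside Srf in DMSO only.

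The other genes of the pathway were taken from 7 lists of 82 genes in all, of which 76 could be tested. The median log2 fold change over all 15816 tested genes was -0.00, and 10.6% were called higher and 12.2% lower. Among the partners of SRF, 7 genes were listed, 5 tested, 1 called higher and 0 lower, with a median log2 fold change of 0.27. The sign of this median was not stable: it was -0.28 with DESeq2, -0.27 with no filter, and also below 0 without sal003 replicate 1 or 2 or DMSO replicate 1, 2 or 4 (-0.27, -0.23, -0.01, -0.02 and -0.23). The gene called was Elk4, a ternary complex factor, at 92.6 ± 4.97 CPM in sal003 and 71.8 ± 4.36 CPM in DMSO (SD, n = 4; log2 fold change 0.37 ± 0.10 SE, edgeR adjusted p = 0.0133). Myocd, which encodes myocardin itself, averaged 0.0627 CPM in sal003 and 0.212 CPM in DMSO and was below the filter.

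Regulators of actin assembly and turnover, which set the pool of free actin that Mkl1 and Mkl2 sense, were split. Of 16 tested, 4 were called higher and 4 lower, with a median log2 fold change of 0.14. The formin Diaph3 (log2 fold change 0.78 ± 0.11) and the non-muscle cofilin Cfl1 (0.57 ± 0.09) rose, while the muscle cofilin Cfl2 (-0.89 ± 0.13) and the small GTPase Rhob (-0.73 ± 0.13) fell (SE; edgeR adjusted p at most 5.01e-04 for these 4). Cfl1 stood at 479.4 ± 17.5 CPM in sal003 and 322.4 ± 31.3 CPM in DMSO, and Cfl2 at 54.7 ± 6.01 CPM in sal003 and 101.2 ± 15.1 CPM in DMSO (SD, n = 4).

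Of 9 immediate early genes, the targets that SRF shares with the ternary complex factors, 8 were tested, 0 were called higher and 3 lower, with a median log2 fold change of -1.25 (-0.40 with a stricter filter, which leaves out the scarce members). The zinc finger factor Egr1 was at 18.6 ± 2.60 CPM in sal003 and 38.2 ± 7.78 CPM in DMSO (SD, n = 4; log2 fold change -1.04 ± 0.18 SE, edgeR adjusted p = 4.59e-04). Fos, at 0.294, 1.12, 2.91 and 0.618 CPM in sal003 and 6.97, 3.62, 4.97 and 4.47 CPM in DMSO, had no overlap between the groups and a log2 fold change of -2.02 ± 0.67 (SE; edgeR adjusted p = 0.0398). Junb, an AP-1 subunit like Fos, overlapped between the groups and had -0.36 ± 0.12 (adjusted p = 0.0436). The calls of Fos and Junb were both lost without sal003 replicate 1 (adjusted p = 0.0899 for Fos and 0.143 for Junb), sal003 replicate 2 (0.0930 and 0.123), sal003 replicate 4 (0.103 and 0.136), DMSO replicate 1 (0.133 and 0.165), DMSO replicate 3 (0.0802 and 0.0679) or DMSO replicate 4 (0.0699 and 0.0718). That of Junb was also lost with the replicate number as a block (0.0550).

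Cytoskeletal targets of the myocardin-related factors moved both ways. Of 21 tested, 5 were called higher and 8 lower, with a median log2 fold change of -0.11. The genes that fell with the lowest p were the LIM protein Fhl1 (log2 fold change -2.82 ± 0.13), the muscle β-tropomyosin Tpm2 (-1.90 ± 0.12), the focal adhesion protein vinculin, Vcl (-0.83 ± 0.08), and the actin-bundling Lima1 (-0.99 ± 0.11). Those that rose were the non-muscle tropomyosin Tpm4 (0.88 ± 0.11), the transgelin paralogue Tagln2 (0.88 ± 0.10), the cytoplasmic actins Actg1 (0.70 ± 0.08) and Actb (0.44 ± 0.12), and filamin A, Flna (0.33 ± 0.07; SE, edgeR adjusted p at most 0.0126 for these 9). Without DMSO replicate 2, which was high for Actb, the estimate of Actb was 0.61 (adjusted p = 4.78e-08). Tagln and its paralogue thus stood on opposite sides: Tagln2 was at 92.4 ± 4.41 CPM in sal003 and 50.05 ± 3.57 CPM in DMSO (SD, n = 4), with no overlap between the groups. Ctgf and Cyr61, which answer both SRF and YAP signalling, did not pass (log2 fold change -0.04 and -0.11, adjusted p = 0.929 and 0.644).

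Targets in striated muscle fell. Of 7 listed, 6 were tested and all 6 were called lower, with a median log2 fold change of -2.41, while Nppa had no count. Acta1 was at 1009 ± 210.6 CPM in sal003 and 5650 ± 342.2 CPM in DMSO, and the cardiac actin Actc1 at 367.7 ± 79.3 CPM in sal003 and 2294 ± 253.6 CPM in DMSO (SD, n = 4). Dystrophin, Dmd, had a log2 fold change of -2.73 ± 0.18 and junctophilin 2, Jph2, of -1.24 ± 0.09 (SE; edgeR adjusted p = 9.77e-08 and 8.58e-08). Tagln and Acta2 fell within the range of these genes.

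Of 10 further genes linked to smooth muscle 8 were tested, 0 called higher and 6 lower, with a median log2 fold change of -0.72. The genes named by p were Synpo2, an actin-associated protein also found in skeletal muscle (-1.32 ± 0.11), smoothelin, Smtn (-0.72 ± 0.09), the myosin phosphatase subunit Ppp1r12b (-0.73 ± 0.11), and the LIM protein Csrp1 (-0.36 ± 0.10; SE, edgeR adjusted p = 0.0130). The call of Csrp1 was lost without sal003 replicate 3 (adjusted p = 0.0507). Lmod1, a leiomodin of smooth muscle, was called too at 0.201 ± 0.175 CPM in sal003 and 2.37 ± 0.383 CPM in DMSO (SD, n = 4; edgeR adjusted p = 0.0349). Its call was lost with the replicate number as a block (0.0708) and without sal003 replicate 1, 3 or 4 or DMSO replicate 1, 3 or 4 (0.0504 to 0.0842). With 1 library left out, 4 to 7 genes of the list were called. Kcnmb1, a potassium channel subunit of smooth muscle, averaged 0.0613 CPM in sal003 and had 0 counts in DMSO. Ppp1r14a was below the filter too (0.0689 CPM in sal003, 0.887 CPM in DMSO). The integrin Itga8, at 0.789 CPM in sal003 and 0.727 CPM in DMSO, and Myl6 did not pass (log2 fold change 0.12 and -0.23, edgeR adjusted p = 0.970 and 0.274).

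Markers of pericytes and other mural cells, the cell type in which Acta2, Tagln, Cnn1 and Myh11 are usually read together, had a lower summed level in sal003, as did Acta2. Their summed level ran from 216.6 to 252.1 CPM in sal003 and from 371.2 to 462.9 CPM in DMSO, and of 8 listed 7 were tested, 0 called higher and 4 lower (Cspg4, Abcc9, Mcam and Notch3). Nearly all of the sum came from these 4 genes, with Cspg4 alone at 149.2 CPM in sal003 and 196.9 CPM in DMSO. Abcc9 and Notch3 kept their calls under all alternatives. That of Cspg4 was lost without sal003 replicate 1 or 2 (adjusted p by edgeR 0.0692 and 0.0677), and that of Mcam without any 1 library other than DMSO replicate 3 (0.0517 to 0.160). Without DMSO replicate 2 the log2 fold change of Cspg4 went from -0.40 to -0.27 (adjusted p by edgeR 0.0254). That of Mcam went from -0.56 to -0.41 (0.102). The other genes of the list were low, and Anpep, at 1.48 CPM in sal003 and 0.670 CPM in DMSO, had the opposite sign without passing (log2 fold change 1.13, adjusted p = 0.599). Pdgfrb averaged 3.57 CPM in sal003 and 6.74 CPM in DMSO, Rgs5 averaged 0.256 CPM in sal003 and 0.704 CPM in DMSO, and Kcnj8 had counts in 1 sal003 library only, together with Myocd, Cnn1 and Myh11 at or near 0. Of 8 fibroblast markers, 3 were tested and 0 called, their summed level was 100.3 to 118.9 CPM in sal003 and 96.8 to 115.1 CPM in DMSO, nearly all of it from Col3a1, and Dcn, Lum and Dpt had no count. The 4 called genes are named mural by their list only, and which cells carried them was not tested. Whether they have a part in the fall of Acta2 and Tagln was not tested either.

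TGF-β, a strong inducer of Acta2 and Tagln in many cells, was followed through 12 genes, all tested, of which 0 were called higher and 3 lower, with a median log2 fold change of 0.16. The ligands Tgfb2 (41.4 ± 9.71 CPM in sal003, 159.4 ± 24.9 CPM in DMSO) and Tgfb3 (52.2 ± 4.38 CPM in sal003, 164.4 ± 16.6 CPM in DMSO) and the signal transducer Smad3 (18.1 ± 4.31 CPM in sal003, 51.9 ± 2.48 CPM in DMSO; SD, n = 4) fell. Their log2 fold changes were -1.94 for Tgfb2, -1.65 for Tgfb3 and -1.52 for Smad3 (adjusted p by edgeR 3.64e-07, 1.87e-08 and 7.79e-06). Without DMSO replicate 2, 5 genes of the list passed, among them the receptor Tgfbr2, which was then higher (log2 fold change 0.48, edgeR adjusted p = 0.0389).

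**Figure D3:**
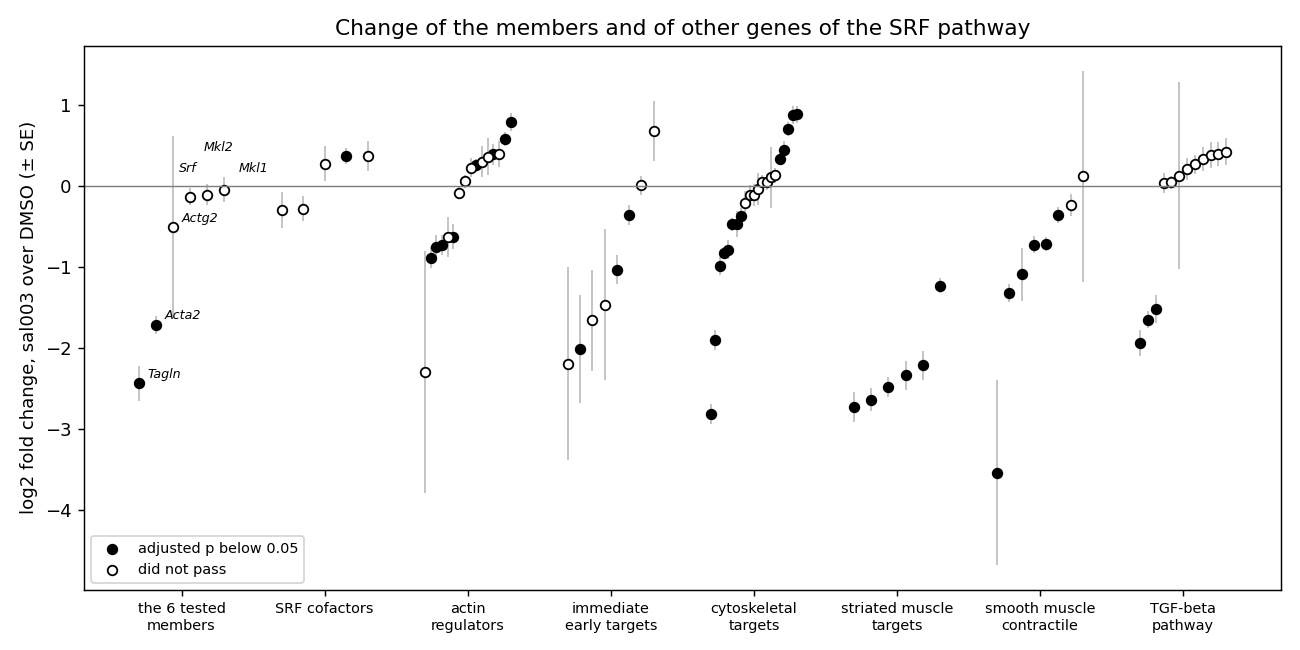
Log2 fold change of sal003 over DMSO (± SE) for the 6 tested members and for every tested gene of the 7 pathway lists; filled points passed an adjusted p of 0.05 in edgeR's quasi-likelihood test, open points did not. Acta2 and Tagln lie at -1.72 and -2.44 while Srf, Mkl1 and Mkl2 lie near 0; all 6 striated muscle targets are filled and below 0, and the cytoskeletal targets spread from -2.82 to 0.88.

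The genes whose profile over the 8 libraries was most like that of a member were sought by the root mean square difference of log2 CPM after each gene was centred at its own mean, among 7321 tested genes of sufficient level (11480 for the scarce Actg2). For Acta2 they were the cell cycle inhibitor Cdkn1a (0.09 log2 units), Trim55, a ubiquitin ligase of the sarcomere (0.11), and Cdc42ep3, an effector of Cdc42 (0.11). For Tagln they were Acta1 (0.16), the erythroid and muscle spectrin Sptb (0.16) and the sorting receptor Sort1 (0.18). The likeness of these 6 genes includes the difference between the groups as well as the pattern within them: in sal003, replicates 1 and 2 were below replicates 3 and 4 for Acta2, for Tagln and for Acta1. For Srf the nearest genes were Slc30a5, Col5a1 and Rcor1 (0.05 to 0.06), for Mkl1 Tnfaip1, Rpn2 and Tmbim1 (0.06 to 0.07) and for Mkl2 Ttc19, Ganab and Uqcrc1 (0.07 to 0.08), and none of these 9 genes had an unadjusted p below 0.05. Actg2 had no near match, since its closest gene, Tfpt, differed by 0.37.

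**Figure D4:**
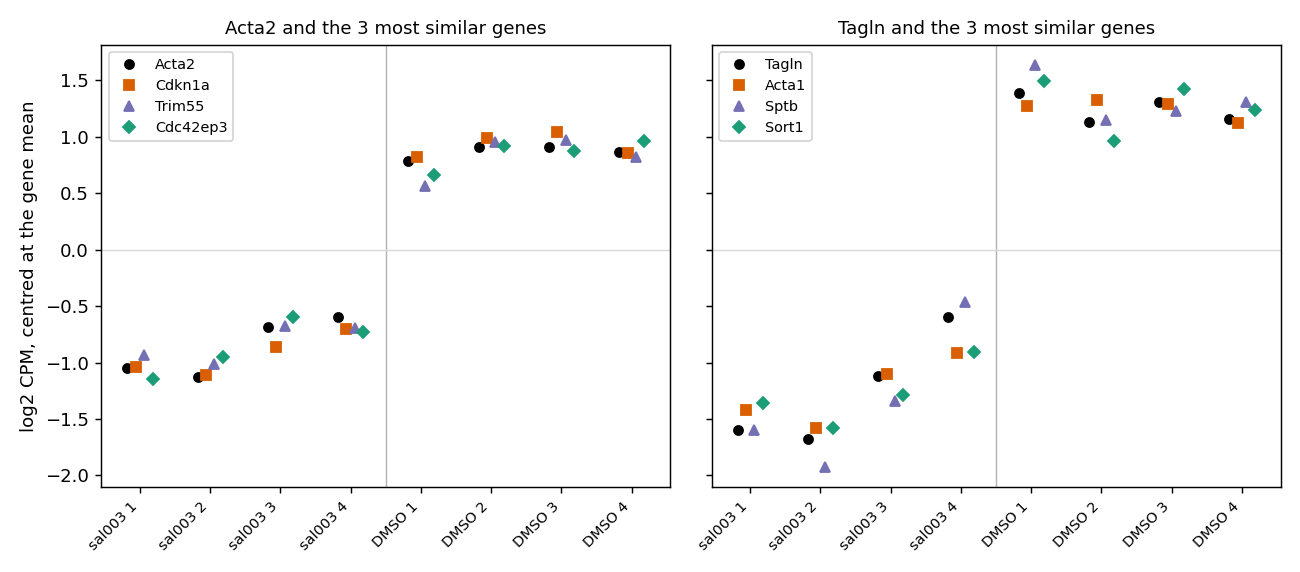
Log2 CPM of Acta2 (left) and Tagln (right) with their 3 most similar genes in each of the 8 libraries, each gene centred at its own mean; sal003 libraries are left of the vertical line and DMSO libraries right of it. The root mean square differences from the member are 0.09 to 0.11 for Acta2 and 0.16 to 0.18 for Tagln. In the Tagln panel the points of sal003 replicate 4 run from -0.91 (Acta1) to -0.46 (Sptb).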

How the data were processed

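The authors deposited 1 table of raw counts per gene for 8 libraries. Per the labels' protocols, total RNA was depleted of ribosomal and mitochondrial RNA and stranded libraries were made; mm10, featureCounts 1.4.4, STAR 2.3.0e and Trimmomatic 0.32 are named, with no roles, in the submitters' processing notes. For sal003 both 10 µM and 10 mM appear in the labels, and 10 µM is used. Of deposited counts from 1 to 20, 75.6% to 83.4% were even, so halved counts were tried. In R 4.3.3, genes were filtered with filterByExpr (minimum count 10, minimum total 15), scaled by TMM and tested in edgeR 4.0.16 (robust quasi-likelihood, group as the only term, two-sided, Benjamini-Hochberg over all tested genes, threshold 0.05). The SE is the log2 fold change divided by the square root of F. The fit was tested on simulated data: estimates centred on the planted changes, but many changes of scarce genes were missed, and the test's pass mark, missed at first, was then reset with the fit unchanged. A scarce gene that did not pass, such as Actg2, may thus have changed. Exon lengths and coordinates are those of GENCODE M21 (mm10), which holds 96.4% of the identifiers. Alternatives used limma 3.58.1, DESeq2 1.42.0, other scalings, filters and thresholds, removal of the most abundant genes, the replicate number as a block, and each library left out. Replicates differed beyond counting noise (chi-square at least 25.3 per degree of freedom), and counting floors cover counting error only. Members and lists were chosen with earlier results of these data known. Named are all members, up to 4 called genes per list by p, called genes against their list's majority, and 3 similar genes per tested member; pericyte, myogenic and a few further genes were named after their values were seen. The values of 1 gene of the TGF-β list are not reported here.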

Additional observations from a re-analysis of the deposited data

Results flagged for a closer look

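Within a group of 4 libraries, 1 library stood far from the other 3 in 10 of the 70 groups examined by the gap to its nearest neighbour relative to the group's range (Dixon's 95% limit), where chance gives about 1 in 20. Among the members these were Mkl2 in DMSO replicate 2 (120.5 CPM, others 79.8 to 83.7), Myh11 in sal003 replicate 1 (2.06 CPM, others 0 to 0.15) and Myh11 in DMSO replicate 2 (2.25 CPM, others 0.235 to 0.473). Among the other named genes, DMSO replicate 2 was low for Cfl1 (275.6 CPM, others 334.6 to 341.3) and high for Fhl1 (115.8 CPM, others 98.6 to 100.9), Vcl (839.0 CPM, others 740.9 to 753.1) and Actb (3806 CPM, others 2452 to 2661). Junb was high in sal003 replicate 3 (100.5 CPM, others 74.9 to 77.5) and in DMSO replicate 1 (122.6 CPM, others 96.9 to 101.2), and Ppp1r12b was low in sal003 replicate 3 (86.5 CPM, others 92.1 to 92.6).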

How the results depend on the processing

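The calls of Acta2 and Tagln held under all 18 alternatives, with log2 fold changes from -1.81 to -1.63 and from -2.70 to -2.30. Srf, Mkl1, Mkl2 and Actg2 passed under none of those that gave a value (Actg2 had none under the stricter filter), but the sign turned for Mkl1 with limma-voom (0.10) and without DMSO replicate 2 (range over single libraries left out -0.15 to 0.13), and for Mkl2 with limma-voom (0.014) and without DMSO replicate 2 (0.066, lowest -0.16); the cause was not tested. At an adjusted p of 0.01, 984 genes were higher, and 0 SRF partners, 1 immediate early gene and 3 smooth muscle genes were called. With 1 library left out, 1270 to 2219 genes were higher and 1612 to 2252 lower, 1 to 2 partners, 1 to 4 immediate early genes and 3 to 5 TGF-β genes were called, and limma-voom called 5 of the last. The median of the partners was -0.27 without a filter, -0.28 with DESeq2 and -0.27 to 0.26 with 1 library left out. The log2 Tagln to Acta2 difference ran from -0.90 to -0.70. Same-numbered libraries did not deviate together (correlations -0.01 to 0.04), so the numbers were not taken as pairs; with a replicate block Acta2 was at -1.73 and Tagln at -2.50, and of the members' calls none changed. Actg2 and Myh11 varied among replicates more than between groups, and Cnn1 had no count.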
